A study of Mus musculus with 2 samples.

Results

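Lipid-associated macrophages are a state of tissue and tumor macrophages that is known by a shared set of genes for sensing, taking up, storing and handing on lipid. TREM2 is a surface receptor that binds lipids and apolipoprotein E and signals through the adaptor TYROBP, and the other genes of the set code for lipid carriers, a lipase, lysosomal and adhesion proteins and secreted factors. In tumors, macrophages with this set are widely studied for dampening T cell responses, and in the liver similar cells gather around fatty or scarred areas. The 9 genes followed here were the receptor *Trem2*, the lysosomal glycoprotein gene *Gpnmb*, the lipid genes *Apoe*, *Lpl*, *Fabp5* and *Cd36*, and *Spp1* (osteopontin), *Cd9* (a tetraspanin) and *Lgals3* (galectin-3). They were taken by symbol from the 32589 genes of the count tables.

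The data were 2 scRNA-Seq libraries of mouse cholangiocarcinoma (CCA), 1 per group, made on the Singleron platform, which counts molecules by unique molecular identifiers (UMIs). Tumors were raised in the liver by hydrodynamic tail vein injection of plasmids for myr-AKT, a membrane-bound active AKT kinase, and NICD, the active intracellular part of NOTCH. Both groups were shYT mice, in which doxycycline, given from day 25, switches on shRNAs against *Yap1* and *Wwtr1* (TAZ) in every tissue through the ubiquitous CAG-rtTA3 driver, so that tumor and host cells both carry the knockdown. The first group received PBS and the other the anti–PD-1 antibody clone RMP1-14 on days 26, 29 and 32, and the tumor-bearing livers were collected at day 33. The comparison asks how the levels of the 9 genes differ between the shYT tumors with and without immune checkpoint blockade. The study describes this experiment with several animals per group and the use of both sexes, but the labels do not give the number or sex of the animals in a library, which of the shRNA lines was used or which cell came from which animal, and no shRenilla library was analysed here. With 1 library per group no test between conditions was possible, and all intervals are 95% intervals for counting error only.

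After a filter that asked for 500 to 5000 genes per cell and allowed 10% of UMIs to be mitochondrial, 15531 PBS cells and 16360 anti–PD-1 cells remained, with medians of 3159 and 2990 UMIs. Classes were gated on marker UMIs, with none of the 9 genes in any gate. Tumor-associated macrophages (TAMs) had at least 30 UMIs of *C1qa*, *C1qb* and *C1qc* together and no UMI of *Clec4f*, the lectin that marks resident Kupffer cells; there were 2234 of them with PBS and 577 with anti–PD-1, or 14.4% and 3.53% of cells. Kupffer cells, with the same complement genes and at least 5 *Clec4f* UMIs, numbered 734 and 1206. Monocytes numbered 202 and 217, and epithelial cells, called tumor cells below, numbered 724 and 364. The epithelial markers are shared by tumor and biliary epithelium, and no plasmid transcript was used in the gate, so biliary cells were not separated from tumor cells. Median depth was nearly equal in TAMs, at 8156.5 and 8154 UMIs, and close in Kupffer cells, at 9361.5 and 9959.5 UMIs.

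The libraries also differed in ways that touch every result below, and the part of these differences in the results was not tested. *Xist*, which only female cells express, was at 233.4 CPM (counts per 1000000 UMIs of the class) in PBS TAMs and at 0 in anti–PD-1 TAMs, while 4 Y-linked genes together were at 31.0 and 138 CPM, so the PBS library held cells of both sexes and the anti–PD-1 TAMs gave no sign of female cells. Treatment and sex makeup therefore cannot be told apart over all cells, and values for the cells that showed Y-linked RNA but no *Xist* are given in a paragraph of their own. The 12 immediate-early and heat-shock genes, which respond to tissue handling as well as to signals, summed to 4551 and 12615 CPM in TAMs, with 12 of 12 higher after anti–PD-1. The 8 interferon-γ response genes summed to 5687 and 8088 CPM, with 8 of 8 higher. In Kupffer cells the same lists summed to 5850 and 13675 CPM (12 of 12 higher) and to 1647 and 4523 CPM (8 of 8 higher, each at least 2-fold). The monocyte gene *Ly6c2* stood at 35.8 and 302.6 CPM in TAMs and *Ccr2*, another monocyte gene, at 234.2 and 118.7 CPM, so monocyte markers did not move together. The monocyte class was not alike in the libraries either. Of its 7 monocyte genes, 2 were higher, with *Ly6c2* at 1985 and 4504 CPM, and 4 were at least 2-fold lower, with *Chil3* at 5723 and 1571 CPM. In this class 8 of 8 interferon-γ response genes were at least 2-fold higher, and 9 of 12 immediate-early and heat-shock genes were higher. The 6 neutrophil genes summed to 159 and 509.8 CPM in TAMs (6 of 6 higher) and to 165 and 499 CPM in Kupffer cells (4 of 6 higher), beside 175 and 622 CPM in T cells. The 6 T cell genes summed to 25.9 and 62.0 CPM in TAMs (6 of 6 higher) and the 8 epithelial genes to 151 and 93.8 CPM (1 of 8 higher). Pancreatic acinar enzyme genes summed to 10.2 and 7315 CPM in tumor cells and to 0.2 and 41.0 CPM in TAMs. The shRNA targets were near the detection limit, with *Yap1* at 9.42 CPM (48 UMIs) and 10.8 CPM (24 UMIs) in tumor cells and *Wwtr1* at 12.8 CPM (65 UMIs) and 7.67 CPM (17 UMIs). In all, 219 barcode strings occurred in both libraries.

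The promoter sequences of the receptor and of the genes whose pattern was compared with it are shown first, because *Trem2* and *Gpnmb* had the most alike levels of any 2 of the 9 genes. Of the 9 genes, 7 had an entry in the RefSeq promoter windows of build GRCm38.p6, which run from 250 bases before to 50 after a start site. The windows were searched on both strands for TGANTCA, GAGGAAGT (the PU.1 type) and CACGTG (the E-box that MITF and TFEB family factors bind). TGANTCA takes in the AP-1 motif, which has C or G in the middle, and also sites with A or T there. The motifs were chosen after the windows had been seen. The printed stretches, 5′ to 3′ on the gene's strand with the motif in capitals, lie at chr17:48346151-48346400 for *Trem2* (plus strand), chr6:49036268-49036532 for *Gpnmb* (plus strand), chr6:122856158-122856407 for *C3ar1* (minus strand), the gene most like *Trem2* in these data, and chr5:104434861-104435110 for *Spp1* (plus strand), whose pattern was unlike that of *Trem2*.
Trem2: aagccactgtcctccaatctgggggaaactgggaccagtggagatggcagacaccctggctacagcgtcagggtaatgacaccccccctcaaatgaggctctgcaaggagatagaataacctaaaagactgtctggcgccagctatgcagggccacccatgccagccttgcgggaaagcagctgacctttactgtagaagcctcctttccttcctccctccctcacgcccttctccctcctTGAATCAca
Gpnmb: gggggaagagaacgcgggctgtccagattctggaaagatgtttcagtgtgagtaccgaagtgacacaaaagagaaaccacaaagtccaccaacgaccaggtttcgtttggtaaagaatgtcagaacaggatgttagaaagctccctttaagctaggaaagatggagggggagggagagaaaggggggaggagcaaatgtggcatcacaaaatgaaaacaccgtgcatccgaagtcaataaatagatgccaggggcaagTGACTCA
C3ar1: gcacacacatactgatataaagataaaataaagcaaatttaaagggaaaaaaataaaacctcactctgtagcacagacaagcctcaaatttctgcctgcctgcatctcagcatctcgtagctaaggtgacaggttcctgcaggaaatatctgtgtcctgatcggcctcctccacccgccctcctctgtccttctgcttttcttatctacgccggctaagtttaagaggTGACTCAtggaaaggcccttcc
Spp1: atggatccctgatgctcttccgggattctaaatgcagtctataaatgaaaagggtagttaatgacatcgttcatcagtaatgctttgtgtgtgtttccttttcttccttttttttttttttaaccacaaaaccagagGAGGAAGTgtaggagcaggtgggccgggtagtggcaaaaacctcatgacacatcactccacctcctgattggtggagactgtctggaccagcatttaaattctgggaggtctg
TGANTCA began 9 bases before the start site of *Trem2*, 22 before that of *C3ar1* and 9 after that of *Gpnmb*, and was found in 2 of the 10 windows of the 7 genes, against 7.81% of all 32851 windows. GAGGAAGT was in 1 of these 10 windows, 1 of the 2 of *Spp1*, and in 3.20% of all windows, and CACGTG was in 0 of the 10. The *Trem2* match was TGAATCA, without the C or G of the AP-1 motif, and those of *C3ar1* and *Gpnmb* were TGACTCA. The share of windows with the AP-1 motif alone was not computed. A match of letters is a description and does not show that a factor binds there.

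In GENCODE vM21 on the mm10 assembly the 9 genes are all protein coding and lie on 7 chromosomes. *Trem2* is at chr17:48346401-48354147, *Gpnmb* at chr6:49036546-49070929, *Apoe* at chr7:19696109-19699188, *Spp1* at chr5:104435118-104441050 and *Lpl* at chr8:68880491-68907448. *Fabp5* is at chr3:10012548-10016607, *Cd9* at chr6:125460266-125494791, *Lgals3* at chr14:47367751-47386160 and *Cd36* at chr5:17781690-17888801.

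*Trem2* was lower in the anti–PD-1 library in all 3 classes of monocytes and macrophages. The ratio was lowest in Kupffer cells, with an interval apart from that of TAMs but not from that of monocytes. In TAMs its level was 812 CPM (interval 799.6 to 824.6) with PBS and 406.5 CPM (389.3 to 424.3) with anti–PD-1, from 16263 and 2093 UMIs. That is a log2 ratio of −0.99 (−1.06 to −0.92), computed as for all ratios below on CPM plus 5, or 7.28 against 3.63 UMIs per cell. In Kupffer cells it was 364.2 against 97.4 CPM, a log2 ratio of −1.85 (−1.95 to −1.75) from 2592 and 1229 UMIs. In monocytes it was 167.6 against 56.0 CPM, a log2 ratio of −1.50 (−1.87 to −1.15) from 224 and 84 UMIs. The order of these classes, TAMs above Kupffer cells above monocytes, was the same in both libraries, with intervals apart, and the Kupffer level was 44.8% of the TAM level in PBS and 24% of it after anti–PD-1. *C1qa* in the same cells gave log2 ratios of −0.13 in TAMs and −0.12 in Kupffer cells, and those of *C1qb* and *C1qc*, the other complement genes of the gate, lay between −0.07 and −0.03. The gate selects cells on these 3 genes, so their ratios are held near 0 by the selection and are no independent reference. *Trem2* was also lower after anti–PD-1 in classes with far lower levels. It was at 44.1 and 14.4 CPM in neutrophils, 38.1 and 13.2 in NK cells, 19.4 and 10.5 in T cells and 17.8 and 10.5 in B cells. In fibroblast-gated cells it was at 18.1 and 24.5 CPM, with overlapping intervals. The source of the UMIs in these other classes was not tested.

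*Gpnmb*, a transmembrane glycoprotein of phagocytes that is induced by lysosomal load, followed *Trem2* in TAMs and Kupffer cells. It was at 333.8 CPM (325.8 to 341.9) in PBS TAMs and 126.2 CPM (116.7 to 136.3) in anti–PD-1 TAMs, from 6685 and 650 UMIs, a log2 ratio of −1.37 (−1.48 to −1.25). In Kupffer cells the levels were 64.6 and 24.1 CPM, with a log2 ratio of −1.26 (−1.46 to −1.06). In monocytes 74 and 68 UMIs gave 55.4 and 45.4 CPM, and the interval of the ratio, −0.73 to 0.21, held 0. TAMs had the highest *Gpnmb* level of the 12 gated classes in both libraries.

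*Apoe*, the apolipoprotein that macrophages secrete and that TREM2 binds, was by far the most abundant of the 9 genes in macrophages and was lower after anti–PD-1 in each of the 3 classes. It made up 53922 CPM in PBS TAMs and 33642 CPM in anti–PD-1 TAMs, a log2 ratio of −0.68 (−0.69 to −0.67), or 483 against 300.2 UMIs per cell. Kupffer cells had 41228 and 24085 CPM (−0.78), and monocytes 5008 and 2103 CPM (−1.25). Tumor cells had 4519 and 4943 CPM (0.13), and −0.02 without the upper limit on detected genes, so no direction can be given there.

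*Lpl*, the lipase that frees fatty acids from lipoproteins, was foremost a Kupffer cell transcript in these tumors. Its level in Kupffer cells was 1421 CPM in PBS and 948.1 CPM after anti–PD-1, from 10114 and 11960 UMIs, a log2 ratio of −0.58 (−0.62 to −0.54). TAMs had 287.7 and 205.1 CPM (−0.48, −0.57 to −0.38) and monocytes 208 and 149.4 CPM (−0.46, −0.72 to −0.21). Among cells that showed Y-linked RNA but no *Xist* the ratio was above 0 in both, at 0.19 in TAMs and 0.47 in monocytes. Fibroblast-gated cells stood second, at 635 and 731.1 CPM. The Kupffer level was thus 494% and 462% of the TAM level, the reverse of *Trem2*.

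*Fabp5*, a cytosolic fatty acid chaperone, differed between TAMs and tumor cells. TAMs had 324.8 and 169.9 CPM, a log2 ratio of −0.91 (−1.02 to −0.81), whereas tumor cells had 266.3 and 335.6 CPM, a log2 ratio of 0.33 (0.20 to 0.46). The tumor ratio was 1.34 among the 47 and 170 tumor cells that showed Y-linked RNA but no *Xist*, and 0.36 among the 721 and 356 tumor cells with under 5 acinar UMIs. Whether the cells with acinar RNA are from the tumor was not tested. TAMs therefore stood above tumor cells with PBS and below them with anti–PD-1, with counting intervals apart in both, though these do not cover the spread between cells. In monocytes the levels were 112.3 and 101.4 CPM and the interval of the ratio held 0.

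*Cd36*, the scavenger receptor for oxidised lipoproteins and long-chain fatty acids, was highest in endothelial cells rather than in macrophages. Endothelial cells had 640.7 and 277.7 CPM (−1.19, −1.51 to −0.89), in 355 and 57 cells. Kupffer cells had 172.7 and 156.2 CPM (−0.14, −0.24 to −0.04), and TAMs 69.3 and 62.1 CPM, with an interval of the ratio, −0.32 to 0.02, that held 0. The Kupffer ratio ran from −0.16 to 0.03 over the alternatives, so no direction can be given there. Monocytes had 9 and 24 UMIs of *Cd36*, or 6.74 and 16.0 CPM, a log2 ratio of 0.84 (−0.08 to 1.81) on the CPM plus 5 scale whose interval held 0. Up to 100% and 40.3% of these UMIs could be free RNA by the lymphocyte level.

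*Spp1*, a secreted phosphoprotein that binds integrins and CD44, was a tumor cell transcript above all. Tumor cells had 28281 and 22240 CPM (−0.35, −0.36 to −0.33), or 199 and 135 UMIs per cell. TAMs had 1555 and 1241 CPM (−0.32, −0.36 to −0.29), Kupffer cells 607.2 and 378.5 CPM (−0.67) and monocytes 1024 and 610.3 CPM (−0.74). T cells, which are taken here as a reference for free RNA, had 1501 and 651.2 CPM, so the level in T cells was close to that of TAMs in PBS and was itself lower after anti–PD-1. The source of the lymphocyte UMIs was not tested. If all of them are taken as free RNA, up to 35.5% and 25.1% of the *Spp1* UMIs of TAMs, 84.1% and 70.2% of those of Kupffer cells and 73.1% and 65.9% of those of monocytes could be free. With the lymphocyte amount subtracted, TAMs kept 8.99 and 8.29 *Spp1* UMIs per cell, still lower after anti–PD-1, and Kupffer cells 0.937 and 1.18, the opposite direction. On the CPM scale the subtraction of all genes gave log2 ratios of 0.09 in TAMs and 0.31 in Kupffer cells, but in TAMs it also moved *Trem2* from −0.99 to −0.80 and *Apoe* from −0.68 to −0.49, so the change of sign in TAMs went with a shift of other genes too. The same share for *Trem2* in TAMs was 0.890% and 1.21%.

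*Cd9* and *Lgals3*, which code for a membrane organiser and a glycan-binding lectin, did not move with *Trem2* in the summed level of TAMs. *Lgals3* was at 1197 and 1142 CPM there (−0.07, −0.11 to −0.03) and *Cd9* at 390.7 and 423 CPM (0.11, 0.04 to 0.18). *Lgals3* was highest in monocytes, at 1868 and 1697 CPM (−0.14), and was lower after anti–PD-1 in Kupffer cells, at 1116 and 912.3 CPM (−0.29). *Cd9* was highest in tumor cells (823.9 and 686.1 CPM) and neutrophils (697.9 and 794 CPM). In Kupffer cells *Cd9*, at 103.8 and 70.7 CPM, lay near the 104 and 90 CPM of T cells. The sign of *Cd9* in TAMs was not stable, since it was −0.02 at the low end of the alternatives.

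**Figure D1:**
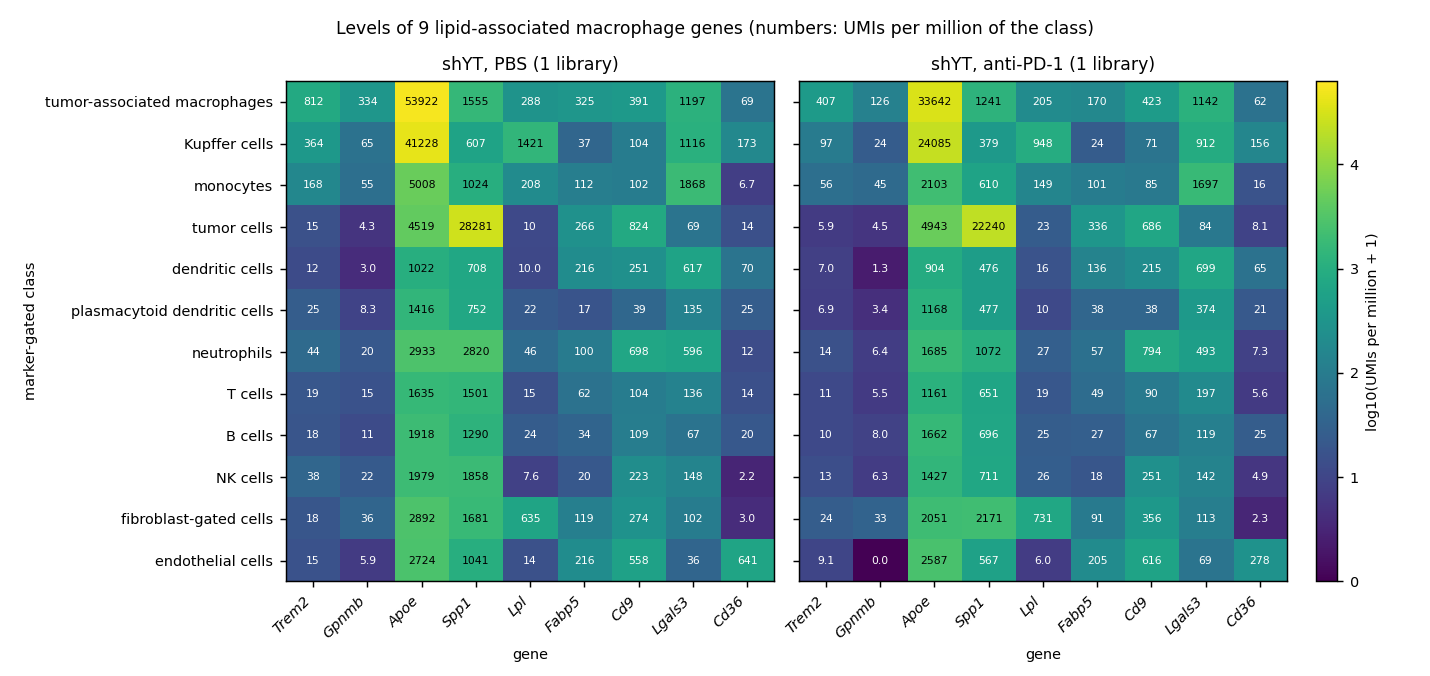
Levels of the 9 genes (columns) in 12 marker-gated classes (rows), in CPM of each class, for PBS (left) and anti–PD-1 (right), with color on a log10 scale and 1 library per group. *Trem2* and *Gpnmb* are highest in TAMs (812 and 333.8 CPM in PBS, 406.5 and 126.2 CPM after anti–PD-1), *Lpl* in Kupffer cells, *Spp1* in tumor cells and *Cd36* in endothelial cells.

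Over the 9 genes, the median log2 ratio was −0.48 in TAMs, against −0.15 over the 9643 genes with a mean of at least 5 CPM there, and 8 of 9 were below 0, as were 68.9% of all genes tested. *Gpnmb* alone was at least 2-fold lower, against 0.643% of genes, and 0 of 9 were at least 2-fold higher, against 3.81%. *Trem2*, at 1.99-fold lower on the CPM plus 5 scale, lay just outside that limit. In Kupffer cells 9 of 9 were below 0, as were 68.9% of all genes, with a median of −0.58 against −0.13 over 9586 genes. *Spp1* and *Cd36* did not stay below 0 there under every alternative. By the lymphocyte level, a large part of the Kupffer UMIs of 3 of the 9 genes could be free RNA. That part was up to 84.1% and 70.2% for *Spp1*, 53.3% and 73.0% for *Fabp5* and 35.5% and 47.6% for *Cd9*. *Trem2* and *Gpnmb* were at least 2-fold lower there, against 0.376% of genes, and 0 of 9 were 2-fold higher, against 2.01%. The median of the 9 genes was also below that of all genes in most other classes. It was −0.49 against −0.14 in T cells, with 2 of 9 above 0, and −0.75 against −0.34 in neutrophils, with 1 of 9 above 0. In B cells it was −0.29 against 0.06, with 3 of 9 above 0. In endothelial cells it was −0.51 against −0.11, and in NK cells −0.09 against −0.18 (−0.28 over the 8 genes with a mean of at least 5 CPM). In neutrophils 3 of 9 genes were at least 2-fold lower, and in NK cells 3 were lower and 1 higher. The share of all genes past 2-fold is not given for these classes. In fibroblast-gated cells it was not, at 0.15 against −0.004, with 5 of 9 above 0. The part of free RNA in these values was not tested. In monocytes the median was −0.26 against −0.12 over 9439 genes, with *Trem2* and *Apoe* at least 2-fold lower (3.17% of genes) and 0 higher (4.59%). In tumor cells 8 of the 9 genes had a mean of at least 5 CPM, with a median of −0.07 against −0.03 over 11175 genes (0.03 with *Gpnmb*, the gene under that limit), and 0 of 9 were at least 2-fold lower (2.13%) or higher (2.77%). The median of all genes lay below 0 in both macrophage classes, and scaling by the median ratio of all genes moved each log2 ratio up by about 0.17 in either.

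**Figure D2:**
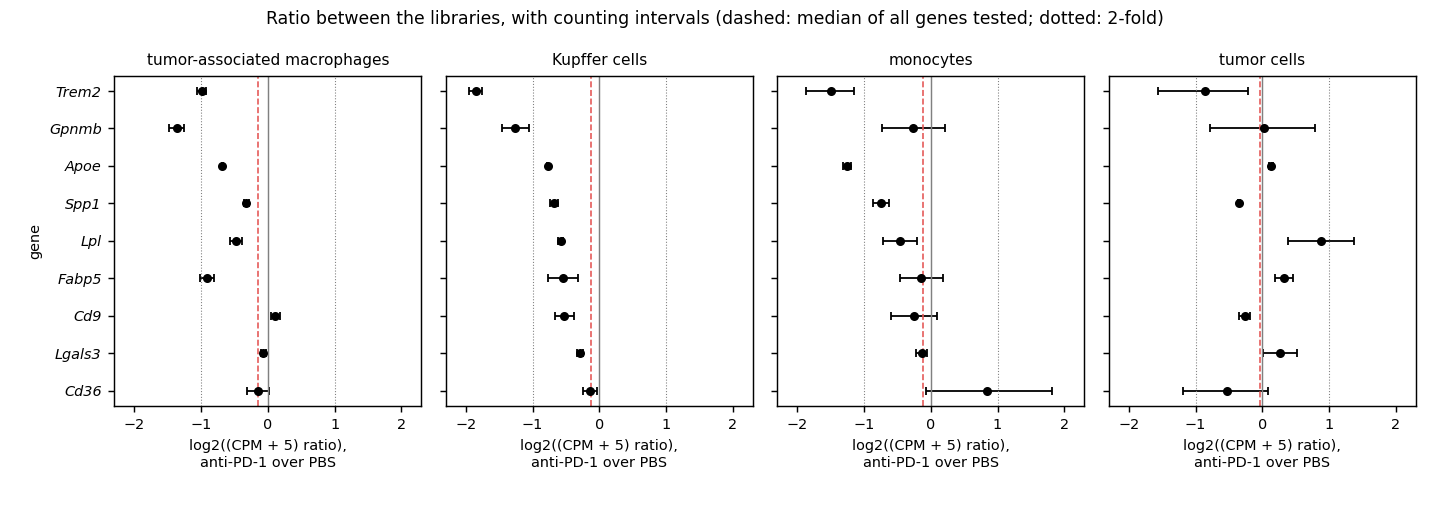
Log2 ratio of anti–PD-1 to PBS (CPM plus 5) for the 9 genes in TAMs, Kupffer cells, monocytes and tumor cells, with bars for the 95% counting interval, a dashed line at the median of all genes tested and dotted lines at 2-fold, from 1 library per group. *Trem2* lies at −0.99, −1.85 and −1.50 in the 3 classes of TAMs, Kupffer cells and monocytes, whereas *Lgals3* and *Cd36* lie near 0 in TAMs.

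The share of cells with at least 1 UMI gave the same picture for the receptor when all cells were thinned to 1000 UMIs. *Trem2* was detected in 49.2% (47.1% to 51.3%) of PBS TAMs and 30.3% (26.6% to 34.3%) of anti–PD-1 TAMs, and in 90.6% and 71.9% without thinning. In Kupffer cells the thinned shares were 25.2% (22.1% to 28.5%) and 8.62% (7.10% to 10.4%), and without thinning 78.6% and 42.5%. T cells, as a class that should lack the gene, had thinned shares of 2.21% and 1.19%, at median depths of 2802 and 3630.5 UMIs. *Gpnmb* was detected in 12.6% and 4.68% of thinned TAMs against 1.58% and 0.607% of T cells.

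For the other genes the background set what could be read. *Apoe* was in 99.1% of thinned TAMs of either library but also in 72.9% and 67.2% of T cells, so its share carries no difference. *Spp1* was in 50.3% and 36.6% of TAMs but in 60.9% and 38.4% of T cells, so its thinned share did not set TAMs above T cells. Thinning removes a larger part of the UMIs of deeper cells, so this does not show the TAM UMIs to be background. Without thinning, TAMs had 13.9 and 11.1 *Spp1* UMIs per cell against 4.95 and 2.78 per lymphocyte. *Fabp5* in Kupffer cells (2.59% and 2.41%) lay below T cells (3.64% in both libraries), and *Cd9* in Kupffer cells (7.77% and 6.22%) below T cells (8.30% and 7.84%). *Lpl* was well above background in Kupffer cells, at 64.2% and 52.2% against 1.17% and 1.80% of T cells, and *Lgals3* in monocytes, at 76.2% and 75.1% against 9.26% and 14.4%. Thinning left out 25 and 29 T cells and no TAM, Kupffer cell or monocyte.

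**Figure D3:**
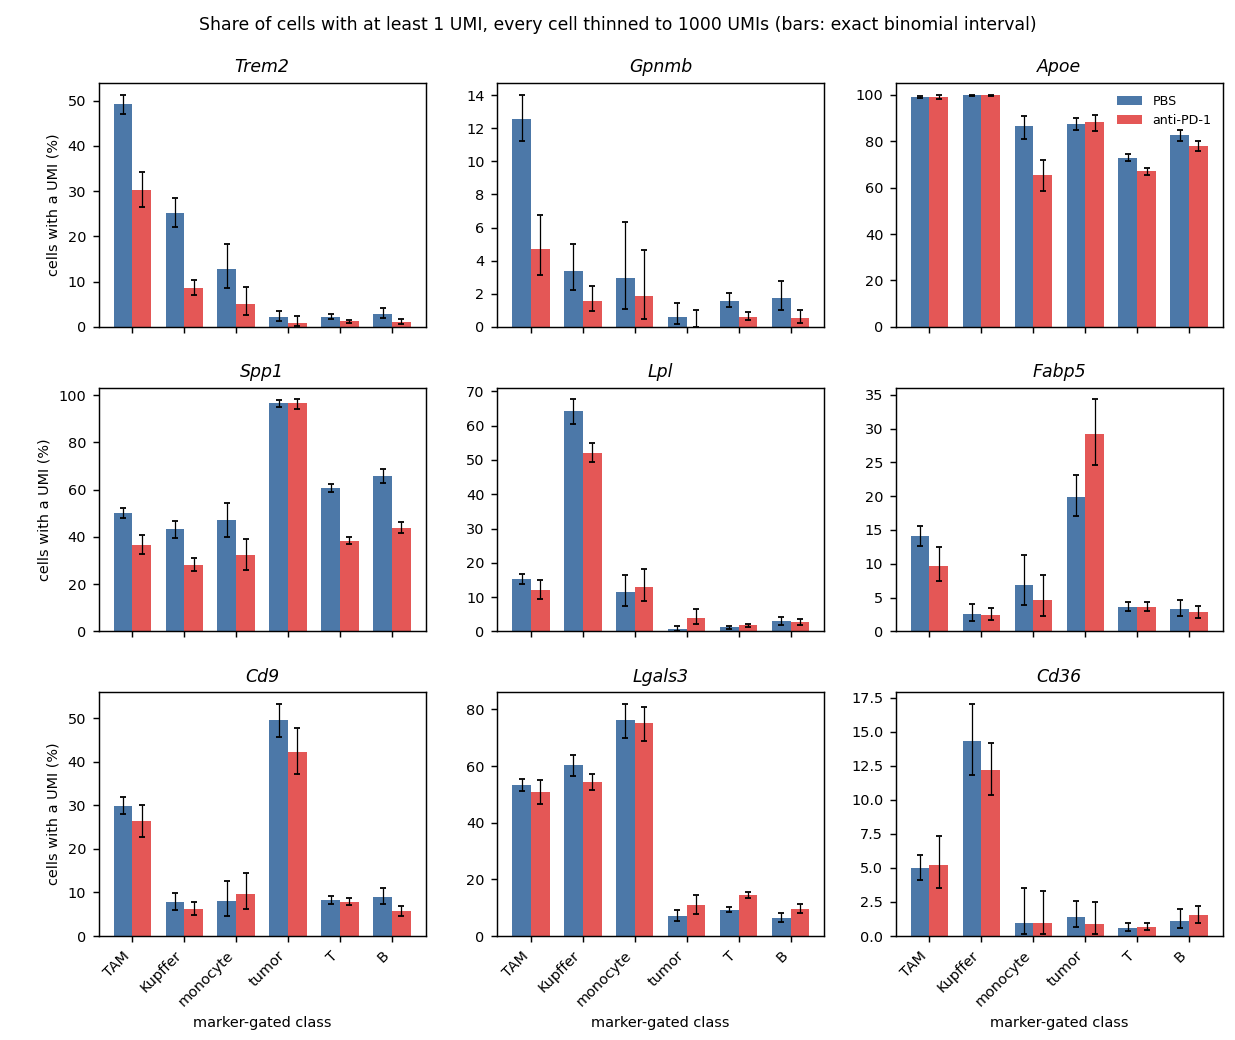
Share of cells with at least 1 UMI of each of the 9 genes after thinning every cell to 1000 UMIs, in percent, by class and library, with exact 95% binomial intervals for counting error. *Trem2* stands at 49.2% and 30.3% in TAMs and 25.2% and 8.62% in Kupffer cells, against 2.21% and 1.19% in T cells, while *Spp1* in T cells (60.9% and 38.4%) is at least as frequent as in TAMs (50.3% and 36.6%).

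The cells that supplied each transcript differed between the libraries, in which both the class sizes and the levels per cell differed. Neutrophils made up 6.43% and 14.6% of cells and endothelial cells 2.29% and 0.348%. TAMs held 60.2% of the 27010 *Trem2* UMIs of the PBS library and 26.3% of the 7953 of the anti–PD-1 library, while the Kupffer share was 9.60% and 15.5%. For *Apoe* the TAM share was 54.6% and 18.7% and the Kupffer share 14.8% and 32.8%. For *Lpl*, Kupffer cells supplied 44.8% and 63.8%. Tumor cells supplied 43.4% and 33.2% of *Spp1*. For *Cd9* the neutrophil share was 5.52% and 23.2%. For *Cd36* the endothelial share was 22.0% and 2.15%.

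Many of the remaining *Trem2* UMIs came from macrophages that no gate took, since 30.7% and 31.9% of all cells had no class. Cells at the complement limit with 1 or 2 *Clec4f* UMIs, between the TAM and Kupffer gates, numbered 409 and 474 and held 13% and 31.8% of all *Trem2* UMIs. Their *Trem2* level was 816 and 475 CPM, their *Gpnmb* level 334 and 156 CPM and their *Apoe* level 53378 and 36562 CPM. These were close to the TAM values in PBS and above the TAM counting intervals after anti–PD-1. With these cells counted as TAMs, the log2 ratio of *Trem2* was −0.87 and that of *Gpnmb* −1.21. The 5 other genes of the Kupffer program, with *Vsig4* and *Cd5l* among them, summed to 141.9 and 408.6 CPM in TAMs, although *Clec4f* was 0 by the gate. T cells had 76.6 and 200.5 CPM of the same 5 genes and 35.2 and 100.2 CPM of *Clec4f*, so the level outside macrophages was higher in the anti–PD-1 library as well. How many macrophages the limit of 0 *Clec4f* UMIs left out for that reason was not tested, and with up to 2 UMIs allowed TAMs numbered 2643 and 1051.

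**Figure D4:**
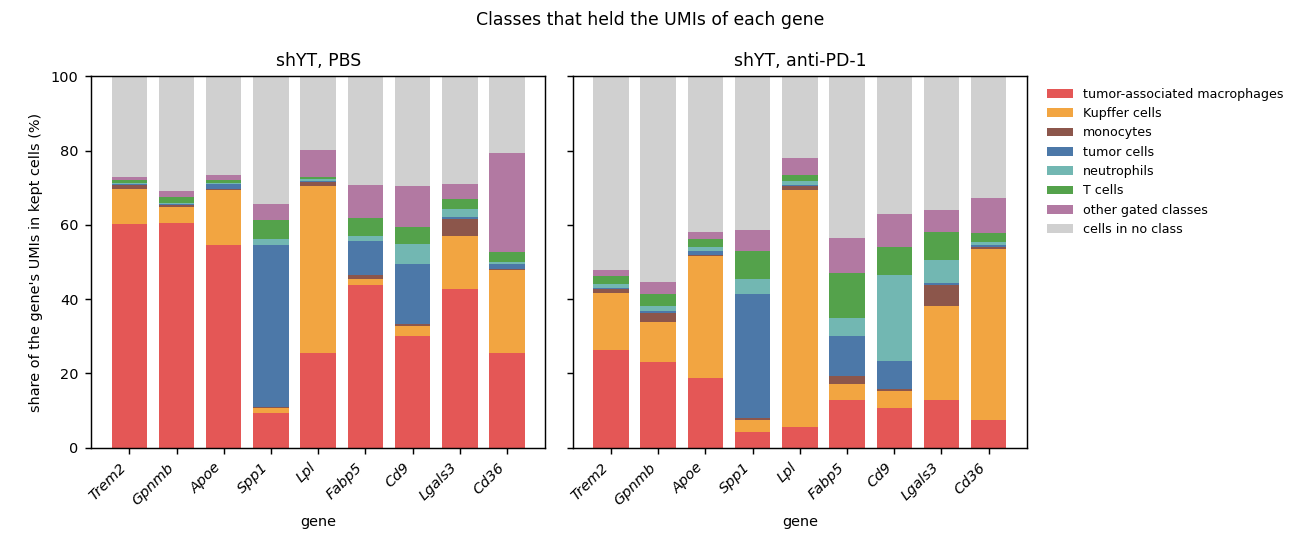
Share of all UMIs of each of the 9 genes, in percent, held by each class and by cells in no class, as stacked bars for the PBS and the anti–PD-1 library. The TAM part of *Trem2* is 60.2% in PBS and 26.3% after anti–PD-1, and Kupffer cells make up 44.8% and 63.8% of *Lpl*.

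The 9 genes were spread very differently over single TAMs. The 5% of TAMs with the most UMIs of a gene held 62.1% and 82.8% of all *Gpnmb* UMIs, 57.6% and 69.1% of *Fabp5* and 50.6% and 57.8% of *Spp1*, but 19.8% and 24.4% of *Trem2* and 16.8% and 19.5% of *Apoe*. *Trem2* and *Apoe* were thus broad in TAMs and *Gpnmb* and *Fabp5* concentrated in few cells. The median TAM had 6.88 and 2.75 *Trem2* UMIs per 10000, and the median Kupffer cell 2.47 and 0.

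The concentrated genes tended to occur in the same cells. In TAMs thinned to 2000 UMIs, *Gpnmb* was detected in 47.7% of 463 PBS cells with *Fabp5* and 10.4% of 1757 without it, and in 33.3% of 75 and 3.64% of 494 anti–PD-1 cells. *Trem2* was detected in 87.6% of 403 PBS TAMs with *Gpnmb* and 65.7% of 1817 without it, against 55.8% of 43 and 43.5% of 526 after anti–PD-1. *Trem2* was therefore less often seen after anti–PD-1 in TAMs without *Gpnmb* as well. In Kupffer cells *Trem2* went with *Gpnmb* (82.9% of 35 against 41.9% of 690 cells in PBS) but not with *Lpl* (42.0% of 595 cells with *Lpl* against 52.3% of 130 without). Of the 5 genes *Trem2*, *Gpnmb*, *Spp1*, *Lpl* and *Fabp5*, at least 3 were seen in 30.4% of 2220 PBS TAMs and 13.7% of 569 anti–PD-1 TAMs. The same held for 25.1% and 6.64% of Kupffer cells, 8.59% and 5.61% of monocytes and 1.06% and 0.352% of T cells. These 5 genes leave out *Apoe*, *Cd9*, *Lgals3* and *Cd36*, of which the last 3 differed little in summed level between the libraries in TAMs. Of all 9 genes, at least 3 were seen in 89.1% and 78.6% of the same TAMs and at least 4 in 67.5% and 48.3%.

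The lower *Trem2* level was present within subsets of TAMs split by other genes, all after thinning to 2000 UMIs. Cells with a UMI of the monocyte genes *Ly6c2* or *Ccr2* made up 27.1% and 27.8% of TAMs. *Trem2* was at 573 and 288 CPM in them (log2 ratio −0.98) and at 824 and 434 CPM in the rest (−0.92). In cycling cells, with *Mki67* or *Top2a*, the ratio was −1.23 and in the rest −0.90. Cells with *Mrc1*, the mannose receptor, made up 34.8% and 18.8% of TAMs and those with *Cx3cr1*, a chemokine receptor of monocyte-derived cells, 60.4% and 36.0%. The log2 ratio of *Trem2* was −1.0 with and −0.90 without *Mrc1*, and −0.82 with and −0.91 without *Cx3cr1*.

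Other genes of the set depended on the split. The cells with *Ly6c2* or *Ccr2* were not alike in the libraries, since 559 of the 602 PBS cells had *Ccr2* and 76 had *Ly6c2*, against 84 and 96 of the 158 anti–PD-1 cells. *Gpnmb* had a log2 ratio of −0.56 in TAMs with *Ly6c2* or *Ccr2* and −1.25 in the rest, and *Fabp5* −0.31 and −0.92. *Lpl* was 0.38 with and −0.70 without, *Lgals3* 0.42 and −0.12, and *Cd36* 0.66 and −0.47. For these 3 genes the sign of the ratio was opposite in the cells with and without monocyte genes, a difference between subsets that was not tested. *Cd9* ran the other way, at −0.21 with and 0.15 without, and *Spp1* was at 0.01 and −0.47. In the cells with monocyte genes the counting intervals of the 2 libraries were apart for *Lgals3* and overlapped for *Gpnmb*, *Fabp5*, *Lpl* and *Cd36*. In the rest they overlapped for *Lgals3* and *Cd36* and were apart for *Gpnmb*, *Fabp5* and *Lpl*. In a split by each gene alone, chosen after seeing the data, the ratio of *Lpl* was 0.90 with and −0.56 without *Ly6c2*, and 0.52 with and −0.59 without *Ccr2*, and *Lgals3* and *Cd36* had the same signs as before. The *Gpnmb* ratio was −1.59 with and −1.09 without *Ly6c2* and −0.90 with and −1.27 without *Ccr2*, and that of *Trem2* was −1.32 with and −0.83 without *Ly6c2* and −0.55 with and −1.04 without *Ccr2*. In the split by *Ly6c2* or *Ccr2* together, *Apoe* was lower on both sides, with log2 ratios of −0.84 with and −0.59 without them.

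**Figure D5:**
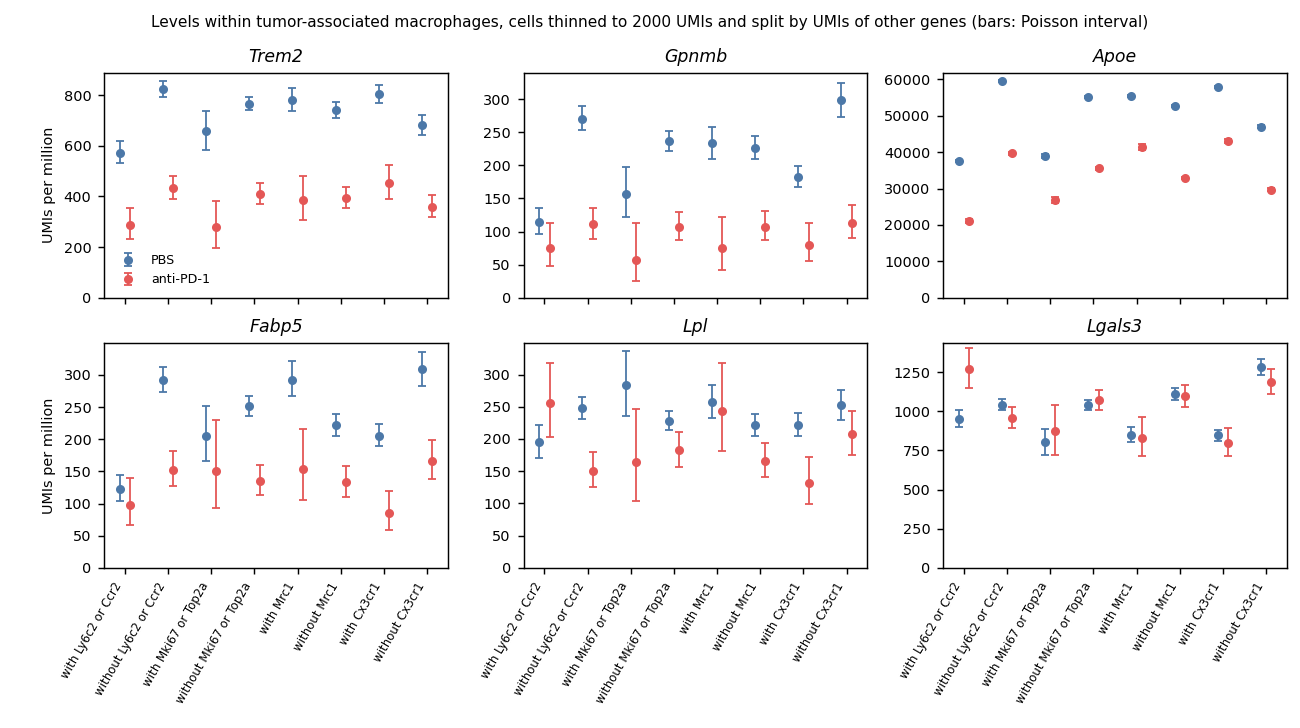
Levels of *Trem2*, *Gpnmb*, *Apoe*, *Fabp5*, *Lpl* and *Lgals3* in TAMs with and without a UMI of *Ly6c2* or *Ccr2*, of *Mki67* or *Top2a*, of *Mrc1* and of *Cx3cr1*, in CPM after thinning to 2000 UMIs per cell, with 95% Poisson intervals and 1 library per group. *Trem2* is lower after anti–PD-1 in every subset shown, for example 573 against 288 CPM with *Ly6c2* or *Ccr2*, whereas *Lgals3* is higher in that subset, with overlapping intervals in the rest.

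Among cells that showed Y-linked RNA but no *Xist* (251 and 348 TAMs, 126 and 836 Kupffer cells), the log2 ratio of *Trem2* was −1.12 in TAMs and −1.85 in Kupffer cells. *Gpnmb* was at −2.04 and −0.81, *Apoe* at −1.04 and −0.83 and *Fabp5* at −1.30 and −0.77. In these cells 4 of the 9 genes were at least 2-fold lower in TAMs, against 1.45% of the 9624 genes tested there and 1 of the 9 in all TAMs, but *Lpl* in TAMs was at 0.19, the opposite sign. In monocytes this left 16 and 127 cells and a median log2 ratio over the 9 genes of 0.46, against −0.26 in all monocytes, with *Fabp5* at 1.64 and *Gpnmb* at 0.97. *Trem2* (−0.78) and *Apoe* (−0.75) were no longer past 2-fold in these monocytes.

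The pathways around the 9 genes were followed with 5 lists, of which at most 4 members are named, by their level in TAMs. Of 9 TREM2 signaling partners, 4 were above 0 and 5 below in TAMs, with a median log2 ratio of −0.16 against −0.15 over all genes, of which 68.9% lay below 0. *Tyrobp*, the adaptor of TREM2, was at 3027 and 2448 CPM (−0.31), *Ms4a7* at 1078 and 834.6 CPM (−0.37), *Ms4a6d* at 287.7 and 315.4 CPM (0.13) and *Inpp5d*, a lipid phosphatase that limits the signal, at 271.9 and 177.1 CPM (−0.60). The single partner past 2-fold, against 0.643% of all genes lower, was *Ms4a4a*, named here after its values were seen, at 51.0 and 12.0 CPM (−1.72). It was also more than 2-fold lower in Kupffer cells (−1.12) and monocytes (−1.16).

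Of 22 genes for lipid uptake, efflux and storage, 7 were above 0 and 15 below in TAMs, with a median of −0.10, above the −0.15 of all genes. *Npc2*, which carries cholesterol out of lysosomes, was at 1613 and 1797 CPM (0.15), the lipoprotein receptor *Lrp1* at 712.9 and 500.1 CPM (−0.51), the lipid droplet coat gene *Plin2* at 492.7 and 543.4 CPM (0.14) and the lysosomal acid lipase *Lipa* at 405.2 and 234.6 CPM (−0.78). Past 2-fold, and named after their values were seen, were 3 higher genes and 1 lower of the 20 with a mean of at least 5 CPM, against 3.81% and 0.643% of all genes. *Olr1* met that mean only through the anti–PD-1 library. *Hilpda*, which slows lipolysis in lipid droplets, was at 45.3 and 201 CPM (2.04), the oxidised lipoprotein receptor *Olr1* at 4.09 and 38.6 CPM (2.26), *Fabp4* at 13.8 and 44.5 CPM (1.40) and *Apoc4* at 28.3 and 7.77 CPM (−1.38). *Hilpda* was also at least 2-fold higher in Kupffer cells (1.36), monocytes (1.06) and tumor cells (1.01).

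Of 15 lysosome and tetraspanin genes, 14 were below 0 in TAMs, against 68.9% of all genes, with a median of −0.39 against −0.15 and 0 past 2-fold. *Ctss* was at 6187 and 6159 CPM (−0.01), *Ctsb* at 4744 and 3323 CPM (−0.51), *Ctsd* at 4704 and 2712 CPM (−0.79) and *Psap*, the precursor of lipid-degrading cofactors, at 4648 and 3397 CPM (−0.45). In Kupffer cells 12 of 15 were below 0, as were 68.9% of all genes (median −0.28, against −0.13 over all genes). There *Cd63*, a tetraspanin of late endosomes named after its values were seen, was at 150 and 59.3 CPM (−1.27). In monocytes 14 of 15 were below 0 (median −0.44), against 60.4% of all genes with a median of −0.12.

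Of 13 candidate transcriptional regulators, 9 were below 0 in TAMs, near the 68.9% of all genes, with a median of −0.25 against −0.15. *Bhlhe40* was the 1 regulator past 2-fold, against 3.81% of all genes higher. *Maf* was at 311.6 and 199.9 CPM (−0.63), *Bhlhe40* at 43.1 and 109 CPM (1.25) and the liver X receptor gene *Nr1h2* at 63.8 and 69.1 CPM (0.11). *Bhlhe40* was higher in each of the 4 main classes, by 0.67 in Kupffer cells, 0.75 in monocytes and 1.11 in tumor cells. Of 7 SPP1 receptor genes, 3 were above 0 and 4 below in TAMs, and the median over the 6 with a mean of at least 5 CPM was −0.14 against −0.15 over all genes, with *Itgb5* at 496.6 and 317.5 CPM (−0.64), *Itgb1* at 205 and 205.7 CPM (0.01), *Itga4* at 161.7 and 160.6 CPM (−0.01) and *Cd44* at 160.9 and 182 CPM (0.17).

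The genes with the most similar pattern were ranked by Pearson correlation of log2(CPM plus 5) over 24 points, 12 classes in 2 libraries, which share libraries, depth and free RNA and are a description only. Of 11448 genes, those most like *Trem2* included *C3ar1* (0.95), *Ms4a7* (0.92), *Gpnmb* (0.92) and *Ntpcr* (0.91). Those most like *Gpnmb* were *Trem2* (0.92), *Gdf3* (0.85), *Ms4a7* (0.83), *C3ar1* (0.82) and *Lrp1* (0.81). Those most like *Spp1* were *Chd9* (0.97) and the keratin genes *Krt8* (0.96) and *Krt18* (0.95), then *Nipal2* (0.95) and *Ddit4l* (0.95). Between members, *Trem2* and *Apoe* had a correlation of 0.87, *Trem2* and *Lpl* 0.69, and *Trem2* and *Spp1* −0.11.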

How the data were processed

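The 2 libraries, 1 of shYT mice given PBS and 1 of shYT mice given anti–PD-1, hold 19397 and 19451 barcodes with 121713441 and 100807037 UMIs. The authors deposited raw counts of UMIs per gene and barcode, made per library with the platform's Cell Scope software on mm10. The submitters' processing notes also name Seurat 4.3, whose normalization, integration and annotation were not repeated here, since the deposited files hold counts alone. The 9 genes, the lists, the gates and the class names were chosen with earlier results of these data known.

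Cells were kept if they had 500 to 5000 genes and no more than 10% of UMIs from mitochondrial genes. The 12 classes were gated on marker UMIs with the same thresholds in both libraries, and 29 and 10 cells that passed several gates were left out. The macrophage gate asked for at least 30 UMIs of the 3 C1q genes and 2 UMIs over a list of macrophage genes with *Csf1r*, *Adgre1* and *Fcgr1* in it, with few UMIs of other lineages. Monocytes had under 15 C1q UMIs, at least 15 monocyte UMIs and *Ly6c2*, and tumor cells at least 10 epithelial UMIs. UMIs were summed per class and library and given as CPM (counts per 1000000 UMIs) with exact Poisson intervals, shares with exact binomial (Clopper-Pearson) intervals and ratios as log2 of CPM plus 5 with conditional exact intervals. These cover counting error only. Those of levels and ratios take each UMI as independent and do not cover the spread between cells. Cells are not replicates, so no p-value was computed. Shares were compared after thinning to 1000 UMIs, and splits and joint detection after thinning to 2000. Free RNA was taken as the mean UMIs per T and B cell. Genes with a mean of at least 5 CPM over the 2 libraries formed the background. The named genes were the 9 members, at most 4 genes of each list by mean level in TAMs, and the 5 genes most like *Trem2*, *Gpnmb* and *Spp1*, and others are marked as chosen after their values were seen. Of the genes this rule gave, 1 is not reported here.

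Alternatives were another filter, pseudocount, scaling and gate, thinning before gating, subtraction of lymphocyte UMIs and cells of 1 sex. A gate with up to 2 *Clec4f* UMIs, splits of TAMs by *Ly6c2* or *Ccr2* alone, a limit on acinar UMIs and a removal of the highest 5% of doublet scores (804 and 836 cells) were chosen after seeing the data, the last because the automatic threshold of the doublet caller marked 0 cells. The scripts were tested on simulated data. Python 3.11.15, numpy 2.4.6, scipy 1.17.1, pandas 2.3.3, scanpy 1.11.5 and matplotlib 3.10.9 were used.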

Additional observations from a re-analysis of the deposited data

How the results depend on the processing

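No paired analysis was possible because each group had 1 library, and no replicate could be left out. The 5 log2 ratios past 2-fold (*Gpnmb* in TAMs, *Trem2* and *Gpnmb* in Kupffer cells, *Trem2* and *Apoe* in monocytes) stayed below 0 under the 12 alternatives, but *Gpnmb* in Kupffer cells was not past 2-fold with thinning before gating (−0.69) or in the cells that showed Y-linked RNA but no *Xist* (the Y-linked cells, −0.81), nor were *Trem2* (−0.78) and *Apoe* (−0.75) in the Y-linked monocytes. The median log2 ratio in TAMs, −0.48, became −0.32 with median-ratio scaling, −0.29 with up to 2 *Clec4f* UMIs allowed (2643 and 1051 cells), −0.30 with cells thinned before gating, −0.34 in the Y-linked cells and −0.33 with lymphocyte UMIs subtracted. The median in Kupffer cells, −0.58, became −0.41 with median-ratio scaling, −0.64 without an upper limit on detected genes, −0.63 with doubled marker thresholds, −0.69 with thinning before gating, −0.74 in the Y-linked cells and −0.69 with subtraction. The median in monocytes, −0.26, was 0.46 in the Y-linked cells, of which there were 16 and 127. The number of genes at least 2-fold apart was 4 in place of 1 in TAMs in the Y-linked cells, and 1 in place of 2 in Kupffer cells both there and with thinning before gating, and 3 with subtraction, where *Fabp5* was the added gene. In tumor cells it was 2 in place of 0 with a pseudocount of 1 CPM, 1 without the upper limit, 1 with thinning before gating, 1 without the highest doublet scores, 2 in the Y-linked cells and 3 with subtraction. The cause of these shifts was not tested. Among the alternatives, the share of all genes past 2-fold is given only for the Y-linked TAMs, so the other counts have no share beside them. The subtraction left 0.167 and 0.0668 *Fabp5* UMIs per Kupffer cell. Per tumor cell it left 0.0388 and 0 of *Trem2*, 0.0758 and 0 of *Lgals3* and 0.0152 and 0.0568 of *Lpl*, all near the detection limit. Over 12 alternatives the log2 ratio of *Trem2* ranged from −1.12 to −0.80 in TAMs, from −1.89 to −1.57 in Kupffer cells and from −1.59 to −0.78 in monocytes. That of *Gpnmb* ranged from −2.04 to −1.20 in TAMs and from −1.39 to −0.69 in Kupffer cells, and that of *Apoe* from −1.04 to −0.49 in TAMs, from −0.86 to −0.59 in Kupffer cells and from −1.39 to −0.75 in monocytes. In TAMs *Spp1* ranged from −0.49 to 0.09, with the value above 0 under the subtraction alone, which raised the other 8 genes too. In TAMs *Lpl* ranged from −0.51 to 0.19, *Cd9* from −0.02 to 0.32, *Lgals3* from −0.10 to 0.10 and *Cd36* from −0.15 to 0.46, so that the sign of these 4 genes depended on the processing. So did that of *Cd36* (−0.16 to 0.03) and *Spp1* (−0.83 to 0.31) in Kupffer cells. In monocytes it did for *Gpnmb* (−0.95 to 0.97), *Lpl* (−0.73 to 0.47), *Fabp5* (−0.54 to 1.64), *Cd9* (−0.43 to 0.63) and *Lgals3* (−0.34 to 0.07). With 1 library per group the spread between animals is unknown, and no interval here covers it.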
